A study of Mus musculus with 12 samples.

Results

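The complement system was followed in aging mouse testes through 9 of its genes, chosen by name: C1qa, C1qb, C1qc, C2, C4b, C3, Cfb, Serping1 and Cd46. They were 9 of the 24516 genes of the deposited transcript table, and the reads of all their known and assembled transcripts, 22 in total, were summed per gene. Another 54 complement genes were set beside them, of which 52 were in the table.

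Complement is a cascade of proteins that marks cells and particles for removal and can pierce their membranes. In the classical pathway the C1q complex, built of chains encoded by C1qa, C1qb and C1qc, binds a target, and the cleavage of C4 and C2 then forms an enzyme that splits C3, the central component. Cfb encodes factor B, which takes the place of C2 in the alternative pathway, while Serping1 encodes the C1 inhibitor. Cd46 encodes a membrane cofactor for the breakdown of C3b and C4b, and in the mouse it is known for its expression in testis, where the protein lies on the inner acrosomal membrane of sperm.

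Testes of C57BL/6 mice, an inbred laboratory strain labelled as wild type, were sampled at ages of 3 (3M), 6 (6M), 12 (12M) and 18 (18M) months, with 3 mice per age and 1 library per mouse. The labels give no transgene or treatment, and of the mice they give no difference other than age. Whether the mice of an age shared a litter, a cage or a day of handling is not given in the sources used here. Total RNA was depleted of ribosomal RNA before sequencing, and the kit used does not keep the strand. Where genes overlap, their reads could not be assigned by strand.

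The libraries held 50924104 to 71803379 estimated reads, of which 5359 to 7122 came from the 9 genes. That was 104 to 131 CPM, a read count scaled to a common library size, here the 48052885 to 68057885 reads summed per gene. Transcripts of spermatids summed to 12126 to 18691 CPM over 7 markers, all of them detected in every library. Markers of lymphocytes summed to at most 7.58 CPM over 8 genes, with 5 of them below 1 CPM in every library. The epididymis markers Lcn5, Lcn8, Spink13 and Crisp1 stayed below 1 CPM, whereas Rnase10 had 3.89 to 4.91 CPM. The scaling factors between libraries lay between 0.989 and 1.03.

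Most of these genes lie in 2 clusters on the mm10 build. C1qa (chr4:136895916-136898844), C1qc (chr4:136889802-136892914) and C1qb (chr4:136880145-136886177) are neighbors on chromosome 4. C4b (chr17:34728380-34743897), Cfb (chr17:34856280-34862514) and C2 (chr17:34862602-34882100) lie in the major histocompatibility region of chromosome 17, with C3 farther along the same chromosome (chr17:57203967-57228136). Serping1 is on chromosome 2 (chr2:84765360-84790198) and Cd46 on chromosome 1 (chr1:195026946-195092248).

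A set of 3 sequences is shown for the features that the results below turn on. The first is an exon of Cd46 of 73 nt that some transcripts included and others skipped. It lies at chr1:195076531-195076603 on the minus strand (mm10), between exons 6 and 7 of the reference transcript, and GENCODE vM21 lists it as exon 7 of 12 in a transcript of the nonsense-mediated decay type. The capitals mark the first in-frame stop codon, TGA, which begins at base 12 of the exon.
Cd46 exon of 73 nt: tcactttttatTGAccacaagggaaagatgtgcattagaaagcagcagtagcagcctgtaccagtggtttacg

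The other 2 are promoters of the neighboring genes C1qb (chr4:136886151-136886450) and C1qc (chr4:136892865-136893164), from the RefSeq table of GRCm38.p6, 5′ to 3′ on the minus strand. They are shown because the level of C1q is described below beside that of macrophage markers. The capitals mark the core motif of PU.1, a transcription factor of the macrophage lineage, searched as GAGGAA on both strands (TTCCTC on the other).
C1qb promoter: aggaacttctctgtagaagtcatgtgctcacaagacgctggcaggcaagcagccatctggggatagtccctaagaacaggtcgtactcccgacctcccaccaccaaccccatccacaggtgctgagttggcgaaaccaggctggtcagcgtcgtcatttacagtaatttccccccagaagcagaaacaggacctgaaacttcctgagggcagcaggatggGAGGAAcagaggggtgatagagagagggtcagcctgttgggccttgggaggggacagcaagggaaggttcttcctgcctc
C1qc promoter: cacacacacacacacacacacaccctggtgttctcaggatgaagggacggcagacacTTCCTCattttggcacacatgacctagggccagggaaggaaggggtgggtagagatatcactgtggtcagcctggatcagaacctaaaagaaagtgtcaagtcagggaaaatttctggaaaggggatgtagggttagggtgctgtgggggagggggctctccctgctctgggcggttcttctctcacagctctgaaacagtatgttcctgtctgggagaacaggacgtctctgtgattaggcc
Each held the motif 1 time, and 28.3% of the 32851 promoters in the table held it at least 1 time. The match is a description of these letters.

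Levels were compared between genes in FPKM, which is scaled by transcript length. Coverage of Cd46, C4b, C3 and Cfb was uneven along the transcript, as described below, which limits comparisons of FPKM between genes. Cd46 had the highest mean over the 12 mice, with 8.03 FPKM ± 1.26 (SD, n = 12). C1qb followed with 7.77 ± 1.12 and Serping1 with 7.43 ± 1.41, and these 3 genes were not separated, since Cd46 exceeded C1qb in 9 of 12 libraries and C1qb exceeded Serping1 in 8. C4b came next at 6.28 FPKM ± 0.43 and lay above C1qc, at 4.69 ± 0.59, in all 12 libraries. C1qc and C2, at 4.61 ± 1.10, changed places between libraries, with C1qc higher in 5 of 12. C1qa had 3.58 FPKM ± 0.83, which was above Cfb in every library. Cfb, at 1.67 ± 0.60, and C3, at 1.24 ± 0.45, were the lowest and again not separated, with Cfb higher in 8 of 12. As a sum over all transcripts of a gene, the central component C3 was thus the lowest of the 9 in most libraries. The Cfb sum came mostly from assembled transcripts described below. Its reference transcript NM_008198 alone had 0.187 to 0.352 FPKM, below C3 in every library.

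**Figure D1:**
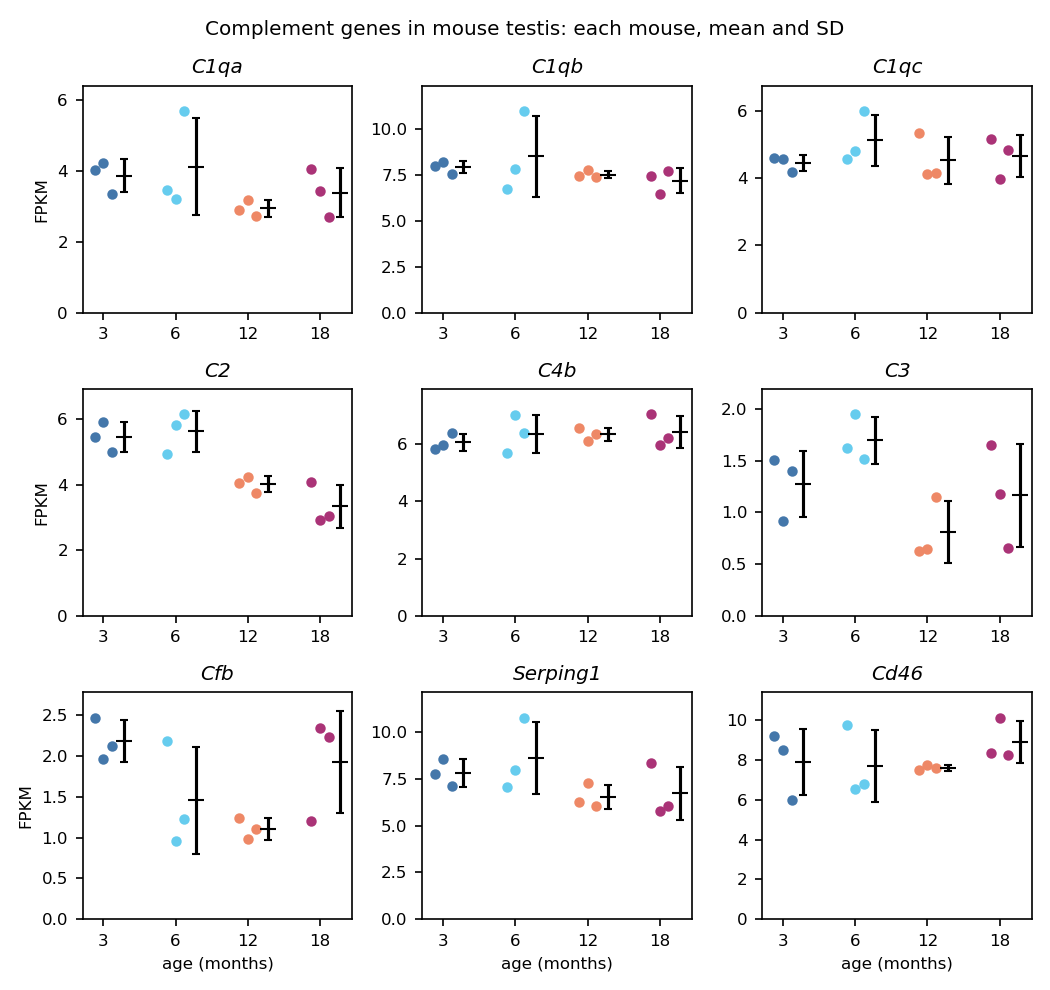
FPKM of the 9 complement genes by age in months, with 1 point per mouse (n = 3 per age) and the mean with its SD beside the points. The C2 points of 12M and 18M mice lie below all points of 3M and 6M mice, whereas the younger and the older mice overlap in the other 8 genes.

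Aging was tested over all genes in 3 ways that share the same mice: as a slope on age, which was expressed as the log2 change over the 15 months from 3M to 18M, as the difference between 3M and 18M, and as any difference among the 4 ages. C2 was the only 1 of the 9 genes called, and it was called by the slope alone. At an adjusted p of 0.05 or less (edgeR quasi-likelihood test), the slope called 0.414% of 18367 genes, with 0.316% lower and 0.0980% higher with age. The comparison of 3M with 18M called 0.0662% of 18130 genes and 0 of the 9. The test of any difference called 0.0917% of 18545 genes and 0 of the 9. At an unadjusted p of 0.05 or less, C2 was again the only 1 of the 9 in each test, against 17.5% of all genes for the slope, 13.5% for 3M against 18M and 10.3% for any difference. The median slope of the 9 genes was a log2 change of -0.17, with 7 of 9 below 0, whereas the median of all genes was -0.01 with 51.3% below 0.

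C2 mRNA, which encodes the protease of the classical C3-splitting enzyme, was lower in the older mice. The 3M mice had 16.2, 17.4 and 14.9 CPM, and the 6M mice 14.7, 17.3 and 17.8 CPM. The 12M mice had 12.1, 12.8 and 11.3 CPM. The 18M mice had 12.1, 8.73 and 9.15 CPM. All 6 mice of 12M and 18M were therefore below all 6 of 3M and 6M, and within the older mice 18M replicate 1 was at the level of the 12M mice. Among all genes, 1.34% showed such an order with the older mice below. The younger and the older ages were set against each other in this way after the values had been seen, and no test was made on them.

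On the log2 scale, C2 fell by 0.77 over 15 months (SE 0.12, 95% interval -1.03 to -0.51), with an adjusted p of 0.0154 in edgeR. That slope corresponds to 0.585 of the starting level. Between 3M and 18M alone the log2 difference was -0.69 (SE 0.14), with an adjusted p of 0.253, and all 18M mice were below all 3M mice, as in 11.0% of all genes. The adjusted p for any difference was 0.121. The call by the slope was lost without 18M replicate 2 (log2 change -0.70, adjusted p = 0.0741) and without 18M replicate 3 (-0.72, adjusted p = 0.0846). DESeq2 called C2 in all 3 tests, with adjusted p-values of 3.07e-07, 0.000262 and 1.66e-06.

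The fall was not even along the transcript. Coverage of C2, scaled to a common library size, was summarised in stretches of exons chosen after the values had been seen. Exons 1 to 8 had 25.3 reads per base ± 4.59 in 3M mice, 22.5 ± 4.76 in 6M mice, 14.5 ± 2.65 in 12M mice and 9.62 ± 4.60 in 18M mice (SD, n = 3). Exons 9 to 16 had 46.6 ± 2.64, 48.0 ± 7.44, 35.9 ± 2.22 and 30.7 ± 5.59 at these ages. The last exon, number 18 with 430 nt, had 29.3 ± 6.04, 39.2 ± 15.9, 31.5 ± 1.90 and 31.2 ± 2.64. In it the older mice, at 28.9 to 34.1 reads per base, lay within the range of the younger, at 22.5 to 57.5. Exon 17, of 50 nt, was in none of these stretches. In exons 9 to 16 all older mice, at 25.7 to 38.2 reads per base, lay below all younger mice, at 39.6 to 53.5. In exons 1 to 8 the older mice, at 5.48 to 17.5, overlapped with the younger, at 17.1 to 30.6.

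Coverage toward the 5′ end also differed between libraries in other genes. The first of 3 equal parts of the C2 transcript had 25.2 to 64.0% of the coverage of the last in 3M and 6M mice and 12.8 to 49.1% in 12M and 18M mice. The median of this percentage over genes was 83.2 to 94.7% in the younger and 73.1 to 91.8% in the older mice. It was lowest in 12M replicate 3 and 18M replicate 3. The part of this difference between libraries in the fall of C2 was not tested.

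Most markers of steroid-producing Leydig cells and of stroma had a negative slope, as C2 did. These were 6 of 7 and 5 of 6 markers, against 51.3% of all genes. The exceptions were Hsd3b1, with a log2 change of 0.05, and Lum, with 0.22. Negative slopes were not confined to these lists. They were found in 9 of 11 macrophage, 5 of 5 peritubular myoid, 4 of 5 endothelium and 4 of 5 spermatogonia markers tested. The slope was negative in 4 of 7 Sertoli, 1 of 6 spermatocyte, 0 of 5 lymphocyte and 0 of 7 spermatid markers. In bulk tissue, fewer cells of a type and less RNA per cell cannot be told apart. Of 7 Leydig markers, edgeR called 3 lower with age by the slope, namely Cyp17a1, Cyp11a1 and Lhcgr, against 0.316% of all genes. DESeq2 also called Hsd3b6 and Star, and none of the 7 was below 1 CPM in every library. Their sum ranged from 919 to 1095 CPM in 3M mice, 858 to 1381 in 6M mice, 675 to 730 in 12M mice and 587 to 802 in 18M mice. Thus the Leydig sum of each older mouse also lay below that of each younger mouse, as in 1.34% of single genes. Insl3, which was not called and overlapped between the younger and the older mice, gave 56.5 to 71.8% of that sum. Without it, the other 6 summed to 332 to 476 CPM in 3M and 6M mice and to 167 to 262 CPM in 12M and 18M mice. Of 6 stroma markers, the collagens Col1a1, Col1a2 and Col3a1 were called lower with age by the slope in edgeR, and Pdgfra also in DESeq2. None of the 6 was below 1 CPM in every library. Their sum was 56.3 to 84.3 CPM in 3M and 6M mice and 36.6 to 50.8 CPM in 12M and 18M mice.

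Macrophages were followed by 12 markers, of which Lyve1 was below 1 CPM in every library. Neither edgeR nor DESeq2 called any of the 11 tested in the slope, while 3 were lower and 1 higher at an unadjusted p of 0.05 or less in edgeR, against 9.60% and 7.87% of all genes. Aif1 alone gave 78.8 to 88.2% of their sum, so it was left out of the sum after the values had been seen. The other 11 summed to 66.2 to 80.6 CPM in 3M and 6M mice and to 52.4 to 71.8 CPM in 12M and 18M mice, which overlapped. The part of these cell types in the fall of C2 was not tested.

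Over the 12 mice, the log2(CPM + 1) of C2 had a Pearson r of 0.95 with Cyp11a1, 0.94 with Cyp17a1 and 0.94 with Hsd3b6, which are steroid-synthesis genes, but 0.80 with Star, 0.76 with Insl3 and 0.31 with Hsd3b1 of the same list. Of the stroma markers, it was 0.92 with Pdgfra and -0.26 with Lum. Of the macrophage markers, it was 0.91 with Csf1r, the receptor of a macrophage growth factor, 0.37 with Adgre1 and -0.71 with Aif1. No other macrophage marker compared was below 0, the lowest being Cd163 at 0.33. Aif1, at 293 to 390 CPM, thus differed from the rest of its list. The spermatid markers had an r with C2 from -0.735 (Acrv1) to -0.373 (Acr). The genes nearest to C2 among 15431 were D430019H16Rik (0.98), Pon3 (0.97), Htra1 (0.97), Rcn1 (0.97) and Fads1 (0.96). These values describe mice that share an age trend, and C2 was added to this comparison after it had been called.

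**Figure D2:**
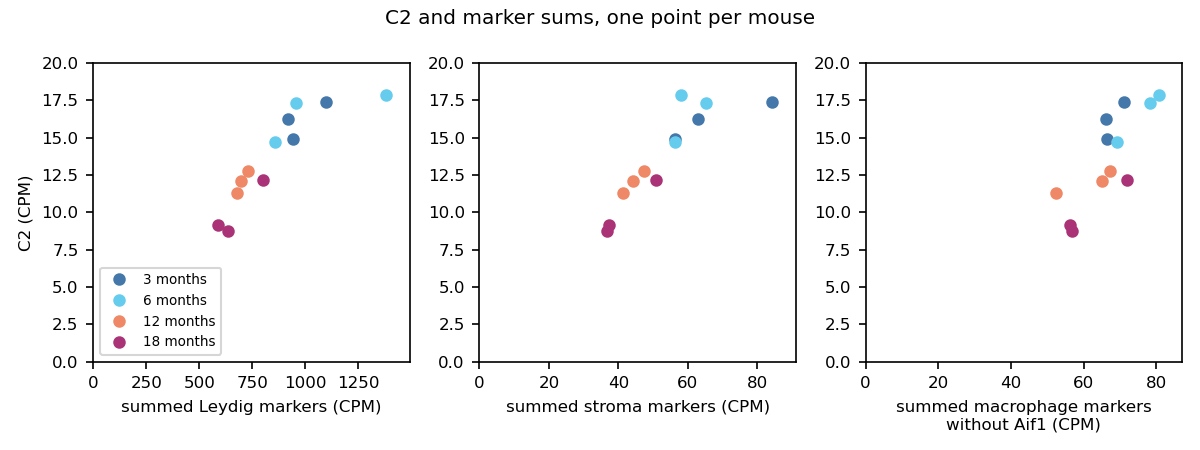
C2 (CPM) against the summed CPM of Leydig, stroma and macrophage markers (without Aif1), with 1 point per mouse colored by age. The 12M and 18M mice lie at lower C2 and at lower Leydig and stroma sums than the 3M and 6M mice, whereas the macrophage sums overlap between 66.2 and 71.8 CPM.

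The C1q genes encode the chains of the recognition molecule, which is made mainly by macrophages, and 0 of the 3 were called by edgeR or DESeq2 in any of the tests or had an unadjusted p of 0.05 or less in edgeR. C1qa was measured at 4.01, 4.23 and 3.35 FPKM in the 3M mice, and at 3.45, 3.20 and 5.68 FPKM in the 6M mice. The 12M mice had 2.89, 3.19 and 2.74 FPKM and the 18M mice 4.05, 3.43 and 2.69 FPKM. All 12M mice were thus below all 3M mice, as in 7.87% of all genes, whereas the 18M mice overlapped with the 3M mice. C1qb had 7.90 FPKM ± 0.33 in 3M mice, 8.50 ± 2.19 in 6M mice, 7.50 ± 0.20 in 12M mice and 7.18 ± 0.68 in 18M mice (SD, n = 3). C1qc had 4.44 FPKM ± 0.24, 5.12 ± 0.76, 4.53 ± 0.70 and 4.65 ± 0.62 at the same ages. The 3M and 18M mice overlapped in each gene, and the wide SD at 6M came from 6M replicate 3, the highest library for 5 of the 9 genes (C1qa, C1qb, C1qc, C2 and Serping1). The log2 change over 15 months was -0.29 for C1qa (95% interval -0.72 to 0.13), -0.17 for C1qb (-0.44 to 0.10) and -0.00 for C1qc (-0.28 to 0.28).

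The relations between the 3 chains over the mice were weaker without 6M replicate 3. With it alone left out, r fell to 0.081 between C1qa and C1qb, to -0.01 between C1qa and C1qc and to 0.259 between C1qb and C1qc. Between C1qa and C1qb, Pearson r over 12 mice was 0.644 (permutation p = 0.069, adjusted p = 0.123) and Spearman rho 0.308 (permutation p = 0.331, adjusted p = 0.616), and r was 0.201 without 6M replicate 3 and 18M replicate 3. Between C1qb and C1qc, r was 0.633 (permutation p = 0.0391, adjusted p = 0.117) and rho 0.231 (permutation p = 0.469, adjusted p = 0.616), and r was -0.11 without 6M replicate 3 and 18M replicate 2. As deviations from the mean of each age, r was 0.635 and 0.66 for these pairs. Between C1qa and C1qc, r was 0.447 (permutation p = 0.161, adjusted p = 0.193) and rho 0.161 (permutation p = 0.616, adjusted p = 0.616), and r was 0.12 without 6M replicate 3 and 18M replicate 3. The adjustment covered 6 relations.

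The mean of the 3 C1q genes followed that of the macrophage markers, with r = 0.811 and rho = 0.888 over 12 mice. Unlike the sum above, this macrophage mean was taken over all 12 markers, with Aif1 and Lyve1 included. The r was 0.671 without 3M replicate 2 and 6M replicate 3, and 0.823 for deviations from the mean of each age. These correlations are given as a description, since the mean is a score over genes chosen for their name. The genes nearest to the C1q mean in pattern were Cers5 (r = 0.951), Plekhh3 (0.943), Ctdsp1 (0.937), Esam (0.937) and Igfbp3 (0.936).

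C4b, which encodes the scaffold of the classical enzyme, was the steadiest of the 9 genes. It had 6.05 FPKM ± 0.30 in 3M mice, 6.35 ± 0.67 in 6M mice, 6.33 ± 0.22 in 12M mice and 6.40 ± 0.56 in 18M mice, and its highest library exceeded its lowest by 1.22 times in CPM. The log2 change over 15 months was 0.06 (95% interval -0.09 to 0.20), so a change as large as that of C2 lay outside the interval. Of the stretches of 101 bases in its transcript, 16.3% also occur in the neighboring gene C4a, which had 1.41 FPKM ± 0.10 over the 12 mice, and reads from these stretches cannot be assigned to one or the other gene. The genes nearest in pattern to C4b were Mmp24 (r = 0.886), Cdadc1 (0.85), Fzd9 (0.841), Slc35d1 (0.834) and Dusp4 (0.83).

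Most C4b reads came from the later part of the gene. Coverage was 2.07 reads per base ± 0.79 (SD over 12 libraries) across exons 1 to 9 of 41, but 44.8 ± 5.22 across exons 13 to 41. It climbed from 6.12 in exon 10 to 32.2 in exon 13. When the transcript was divided into 3 equal parts, the first had 16.8% of the coverage of the last, and 5.21% of 15080 genes of 600 nt or more had a smaller percentage. The transcripts assembled by the authors begin around exons 8 to 10, before the coverage climbs, at chr17:34740856, chr17:34740942 and chr17:34741301, and held 90.4% of the C4b FPKM on average. In 6M replicate 1, however, 92.8% was given to the reference transcript, although exons 1 to 9 had little coverage in every library, between 1.48 and 4.14 reads per base.

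C3 varied widely between mice of the same age. The 3M mice had 1.51, 0.912 and 1.40 FPKM and the 6M mice 1.62, 1.95 and 1.52 FPKM. The 12M mice had 0.627, 0.643 and 1.15 FPKM and the 18M mice 1.65, 1.18 and 0.659 FPKM. The lowest values, near 0.6 to 0.7 FPKM, thus belonged to mice of 12M and 18M, but another 18M mouse, at 1.65 FPKM, was exceeded by only 1 of the 12. The log2 change over 15 months was -0.42 (95% interval -1.15 to 0.32), with an adjusted p of 0.548 in edgeR. Coverage was higher in the later exons, with 2.37 reads per base ± 1.21 in exons 1 to 20 and 12.8 ± 3.75 in exons 21 to 41, and the first of 3 equal parts had 12.0% of the coverage of the last. The genes nearest in pattern to C3 were Slc11a1 (r = 0.881), Slmo1 (0.869), Slc25a3 (0.865), Kcnk3 (0.852) and Tspan15 (0.851). C3 and C4b, whose products act in sequence, had an r of 0.132 over 12 mice (permutation p = 0.677, adjusted p = 0.677) and a rho of 0.175 (permutation p = 0.586, adjusted p = 0.616). It was 0.473 without 12M replicates 1 and 2.

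Cfb was also uneven within ages. The 3M mice had 2.47, 1.97 and 2.13 FPKM and the 6M mice 2.19, 0.952 and 1.22 FPKM. The 12M mice had 1.25, 0.980 and 1.10 FPKM and the 18M mice 1.20, 2.34 and 2.23 FPKM. All 12M mice were below all 3M mice, as in 7.87% of all genes, whereas 2 of the 18M mice were back at the 3M level. Neither the slope (log2 change -0.11, 95% interval -0.78 to 0.56) nor the test of any difference called it.

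Much of the Cfb signal was not from its spliced reference transcript. Assembled transcripts that run through introns in the second part of the gene held 82.8% of its FPKM on average (71.1 to 91.2%). Coverage was 2.65 reads per base ± 0.57 in exons 1 to 6 of 18 and 10.4 ± 4.38 in exons 7 to 16. The uneven values of Cfb were in that second stretch, which ranged from 4.72 to 18.4 reads per base over the libraries, whereas exons 1 to 6 ranged from 1.42 to 3.20. GENCODE also holds the gene model Gm20547 across C2 and Cfb, which shares 53.1% of the 101-base stretches of C2 and 81.0% of those of Cfb. It was not a separate entry of the deposited table, so these reads were counted for C2 and Cfb.

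Serping1, the inhibitor of C1, had 7.82 FPKM ± 0.73 in 3M mice, 8.62 ± 1.93 in 6M mice, 6.55 ± 0.64 in 12M mice and 6.73 ± 1.40 in 18M mice (SD, n = 3). The log2 change over 15 months was -0.31 (95% interval -0.62 to 0.01), with an adjusted p of 0.298 in edgeR. The 18M mice had 8.34, 5.81 and 6.04 FPKM, and those of 3M 7.79, 8.56 and 7.10 FPKM. The 3M and 18M mice overlapped through 18M replicate 1, which also had the highest C2 and Leydig sum of its age.

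**Figure D3:**
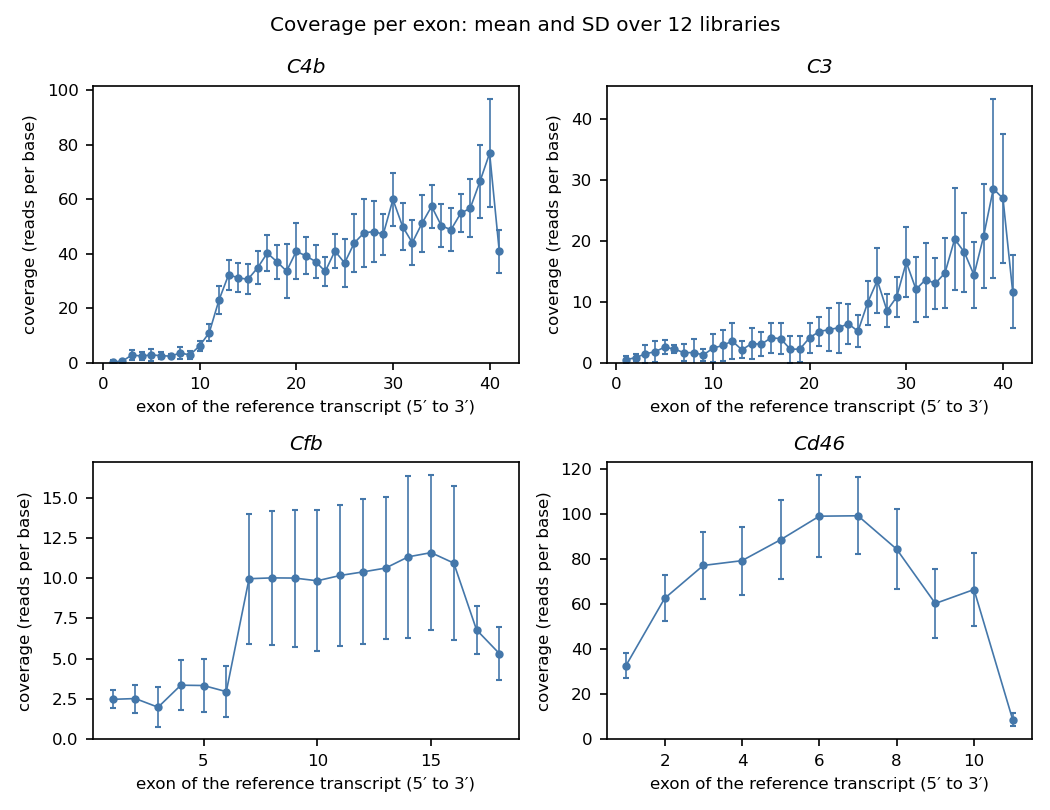
Coverage in reads per base for each exon of the reference transcript, 5′ to 3′, for C4b, C3, Cfb and Cd46, as the mean and SD over the 12 libraries. C4b and Cfb step up within the gene, C3 rises toward its end, and Cd46 drops from 66.5 in exon 10 to 8.66 in the last exon.

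Cd46 was not called by edgeR or DESeq2 in any of the tests. The 3M mice had 9.18, 8.48 and 6.01 FPKM and the 6M mice 9.76, 6.54 and 6.77 FPKM. The 12M mice had 7.47, 7.75 and 7.60 FPKM and the 18M mice 8.36, 10.1 and 8.26 FPKM. Thus 18M replicate 2 was the highest of all mice, but the other 18M mice lay within the range of the 3M mice. The log2 change over 15 months was 0.20 (95% interval -0.05 to 0.44), with an adjusted p of 0.387 in edgeR. Cd46 and the mean of 7 spermatid markers had an r of 0.518 (permutation p = 0.0822, adjusted p = 0.123) and a rho of 0.566 (permutation p = 0.0587, adjusted p = 0.176), with r = 0.444 without 3M replicate 3 and 18M replicate 2. The gene nearest to Cd46 in pattern was Kbtbd6 (r = 0.961), followed by Vwa8 (0.879), Itpripl1 (0.873), Cct8l1 (0.863) and Inpp1 (0.859).

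Cd46 stood out from the other genes by the shape of its coverage. Exons 2 to 10 of 11 had 81.2 reads per base ± 14.0, whereas the last exon of 776 nt had 8.66 ± 2.85. The first of 3 equal parts of the transcript therefore had 793% of the coverage of the last, and 97.0% of genes had a smaller percentage. The other 8 genes ranged from 12.0 to 96.8%, and the median of all genes was 85.6%.

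The Cd46 exon with the stop codon printed above was covered in every library. Its coverage was 19.8% ± 6.79 of that of its neighboring exons in 3M mice, 12.4% ± 5.36 in 6M mice, 20.1% ± 3.99 in 12M mice and 15.9% ± 7.12 in 18M mice (SD, n = 3). The ages overlapped, since the 12 mice ranged from 7.02 to 27.6%. Its length of 73 nt leaves a remainder of 1 when divided by 3, so that its inclusion also shifts the reading frame. Of the 4 Cd46 transcripts, the reference transcript held from 27.9 to 87.1% of the FPKM of Cd46, and 1 assembled transcript held 38.4% in 6M replicate 1 and 0 in the other 11 libraries.

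Among the 9 other membrane regulators of complement, Cd55b and Cd55, which speed up the decay of the C3-splitting enzymes, exceeded Cd46 in all 12 libraries. Cd55b had 93.3 FPKM ± 4.23 and Cd55 34.0 ± 4.36 (SD, n = 12). Cd59a, at 7.17 ± 0.89, and Cd59b, at 6.76 ± 0.86, which block the membrane attack complex, were not separated from each other, and Cd46 exceeded Cd59a in 9 of 12 libraries. Cr1l, the rodent regulator Crry, was lower at 2.02 ± 0.39 in all 12. Csmd1, Csmd2, Csmd3 and Susd4 reached at most 0.405 FPKM in any library. Cd55 and Cd55b share 5.44% and 13.5% of their 101-base stretches, so their separate values are less certain.

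Of these 9 regulators, 0 were called by the slope in edgeR or DESeq2, against 0.414% of all genes in edgeR. At an unadjusted p of 0.05 or less in edgeR there was 1 of 9, against 17.5% of all genes. That was Cd55b, which had a log2 change of 0.13 (SE 0.05, adjusted p = 0.215 in edgeR), and all 18M mice were above all 3M mice, as in 9.53% of all genes. Cr1l had a log2 change of -0.34 (SE 0.17, adjusted p = 0.306 in edgeR).

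**Figure D4:**
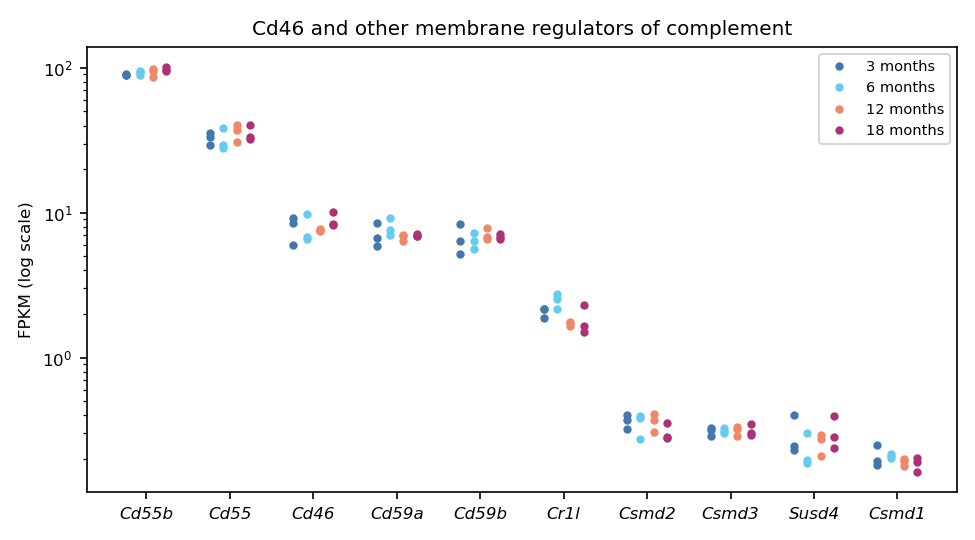
FPKM on a log scale of Cd46 and 9 other membrane regulators of complement, with 1 point per mouse colored by age. Cd55b, at 93.3 FPKM on average, and Cd55 lie above Cd46 in every library, and Cd46 lies near Cd59a and Cd59b.

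None of the other complement genes was called by edgeR in any of the tests, 43 of the 54 being tested in the slope. DESeq2 called 0 of them in the slope and between 3M and 18M, and C1rb and Colec11 for any difference. At an unadjusted p of 0.05 or less, 5 had a lower and 2 a higher level with age, against 9.60% and 7.87% of all genes. The median slope of the 43 was a log2 change of -0.06. Between 3M and 18M, 3 of 41 did not overlap, against 20.5% of all genes.

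The partners of C1q in the C1 complex had negative slopes in 3 of 4 cases, against 51.3% of all genes. C1ra had a log2 change of -0.54 (SE 0.18, adjusted p = 0.174 in edgeR) and C1s1 one of -0.44 (SE 0.18, adjusted p = 0.237), whereas C1rb had -1.26 at a mean of 0.39 FPKM and C1s2 0.13. C1s1, C1ra and C4a were the most abundant of the classical genes outside the 9, at 2.54, 1.90 and 1.41 FPKM. In the lectin pathway, Masp1, a protease of that pathway, had the largest slope in size among the 43, with a log2 change of -1.62 (SE 0.39, adjusted p = 0.0963 in edgeR) at a mean of only 0.093 FPKM. All 12M and 18M mice had less Masp1 in CPM than all 3M and 6M mice, the order also seen in C2 and in 1.34% of all genes. Masp1 had only 6 to 35 reads per library. Colec11, Fcna and Colec12 were the highest of that pathway at 1.42, 0.59 and 0.36 FPKM, and Colec11 reached 6.74 FPKM in 12M replicate 3.

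The alternative pathway was represented by Cfp, properdin, at 0.71 FPKM, while Cfd, factor D, had a mean of 0.052 FPKM and was listed at 0 in 7 of 12 libraries. Genes of the terminal pathway were unequal in level. C8g had 20.7 FPKM ± 1.57, C7 15.1 ± 2.95 and C8b 8.55 ± 0.63 (SD, n = 12), whereas C8a had 0.28, Hc, which encodes C5, had 0.15 and C9 was listed at 0 in 9 of 12 libraries. C6 had a log2 change of 0.50 (SE 0.22, adjusted p = 0.262 in edgeR), with all 18M mice above all 3M mice, as in 9.53% of all genes.

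Of the regulators in body fluids, Clu, clusterin, was the highest at 376 FPKM ± 34.7, and Cpn1 had 7.34 ± 0.72. Clu was highest in 6M replicate 3, at 485 FPKM, against 355 to 375 in the other libraries. Of the genes listed as receptors, C1qbp had 16.4 FPKM ± 1.38, Itgb2 0.38 and Cd93 0.26. The receptors of the C3a and C5a fragments, C3ar1 and C5ar1, had 0.17 and 0.057 FPKM. The slopes of these genes were not called.

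**Figure D5:**
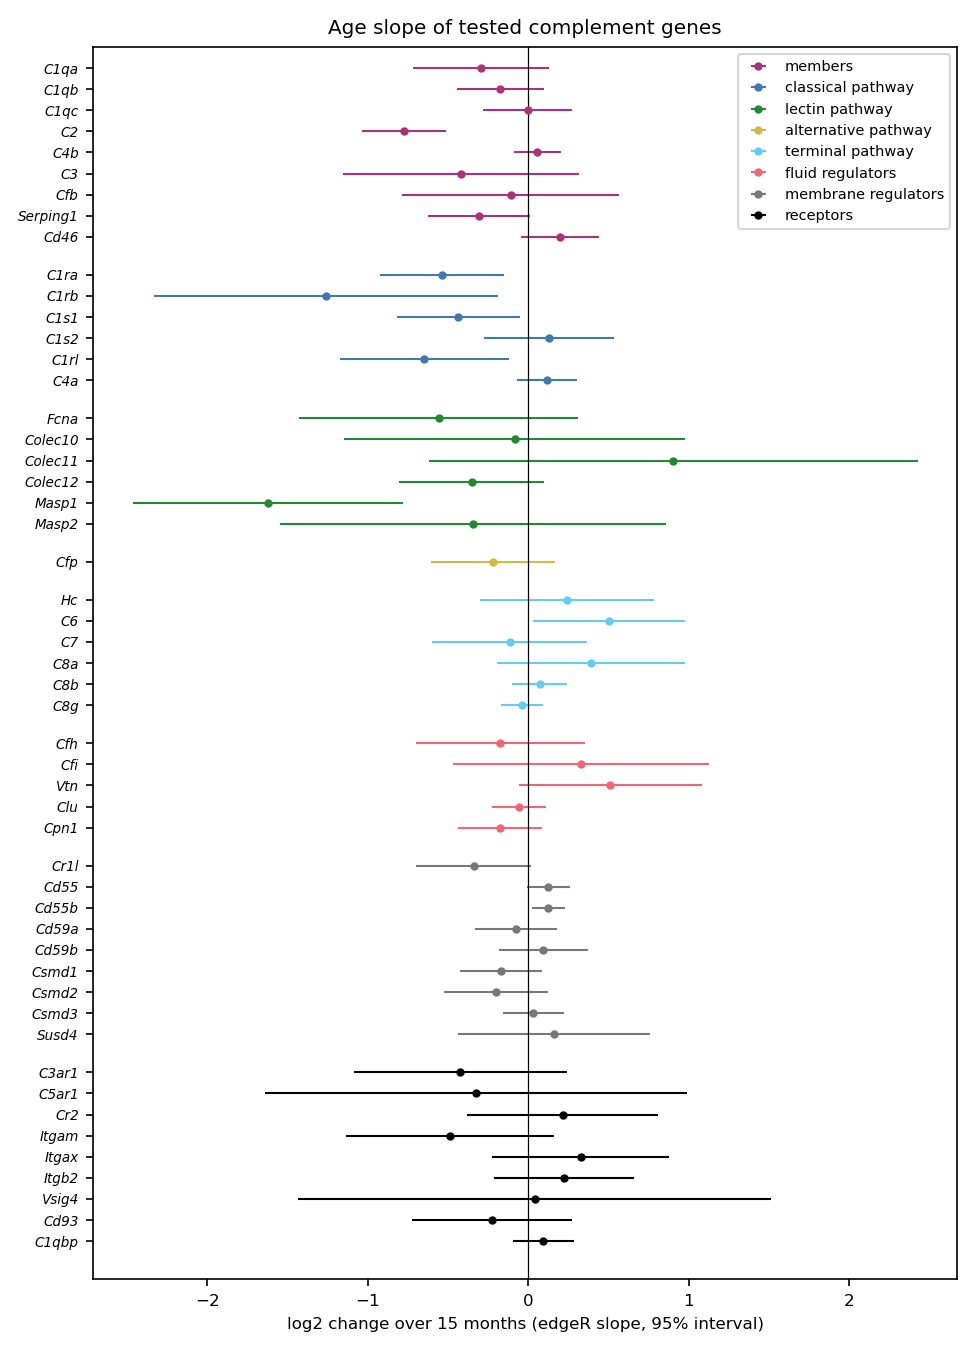
Log2 change over 15 months for the tested complement genes, 1 of them not drawn, with points for the edgeR slope and bars for the 95% interval, grouped by their place in the cascade. C2 is the only one called among the 9 members and the 43 other genes, at -0.77, and the interval of Masp1 is also below 0 while its adjusted p is 0.0963.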

How the data were processed

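Testis RNA of 12 mice, 3 at each of 4 ages, was analysed, and each library was assigned to its age by its title. Libraries were made with a TruSeq kit after removal of ribosomal RNA and read from both ends. The authors aligned reads with HISAT2 to mm10 and assembled and quantified transcripts with StringTie 1.3.3b. The deposited table gives an estimated count and an FPKM per transcript and library. The deposited counts lie within 1 read of coverage times length over a read length of 101. The deposited FPKM values were used without further normalization for levels. Rows of no gene held 3.43 to 4.15% of the reads and were left out of library sizes and tests. Exon coverage came from the assembled transcripts of each library.

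Counts, summed per gene over rows of class =, c, j or o, entered the quasi-likelihood test of edgeR 4.0.16 (R 4.3.3) after TMM scaling and filterByExpr, with Benjamini-Hochberg adjustment over all genes and a threshold of 0.05. The slope and the test of any difference used 12 libraries, and 3M against 18M used 6. DESeq2 1.42.0 and limma 3.58.1 were alternatives, beside other normalizations, filters, row classes, pseudocounts (0.1 and 1), the mouse number as a block, and each library left out. Correlations used log2(CPM + 1) and 100000 permutations, two-sided, with seed 20215, in Python 3.11.15 with numpy 2.4.6, scipy 1.17.1 and pandas 2.3.3. Figures were drawn with matplotlib 3.10.9. The tests were tried on simulated data.

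The genes, the lists and the tests were chosen with earlier results of these data known. Named were the 9 genes, called complement genes, the 3 most abundant of each list, all membrane regulators, and the 5 genes of most similar pattern at a mean of 1 CPM or more. The values of 1 complement gene under this rule are not reported here. C1rb, C1s2, C6, Masp1, Cfd, C8a, Hc, C9, C3ar1 and C5ar1 were named after their values were seen. The exon stretches, the neighbors of C2 and the comparison of 3M with 12M were also chosen then. Over all genes, the deviations of mice with the same number had correlations from -0.055 to 0.155 over 18 pairs, and the main tests did not use the number. The labels do not say what the number stands for. A factor shared by mice of the same number in some genes only was not tested. The p-values measure the spread between mice.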

Additional observations from a re-analysis of the deposited data

How the results depend on the processing

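The fall of C2 with age kept its direction under every alternative tried for the slope, with log2 changes from -0.79 to -0.65, and from -0.91 to -0.70 with each library left out. Its adjusted p ranged from 3.07e-07 to 0.0524 and from 0.0031 to 0.0846. The number of the 9 genes called by the slope was 0 with reference transcripts only (C2, adjusted p = 0.0524), and ranged from 0 to 1 with each library left out. C2 had only 1 transcript, the reference NM_013484, so its own reads were the same with reference transcripts only. Between 3M and 18M that number was 1 with DESeq2. For any difference it was 1 with DESeq2 and at an unadjusted p of 0.05 or less, and ranged from 0 to 1 with each library left out, C2 being called without 18M replicate 1 (adjusted p = 0.0168).

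The count of all genes called moved more. For the slope it was 76, against 45 without a filter on low counts, 15 with reference transcripts only, 577 with DESeq2, 40 with limma on log2(FPKM + 0.1) and 40 on log2(FPKM + 1), 3209 at unadjusted p, and 18 to 197 with each library left out (18 without 18M replicate 3, 197 without 18M replicate 1). For 3M against 18M it was 12, against 19 with reference transcripts only, 260 with DESeq2, 22 with all 12 libraries in the fit, 150 at an unadjusted p with a 2-fold change, and 14 to 25 with each library left out. For any difference it was 17, against 7 with reference transcripts only, 395 with DESeq2, 1913 at unadjusted p, and 8 to 46 with each library left out. The causes were not tested.

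With the mouse number as a replicate block, the slope called 42 genes, 3M against 18M 5 and any difference 9. C2 kept its call by the slope (adjusted p = 0.0415), and the block changed no other call among the 9. In the check of the numbers, 5 of 12 libraries were closest to a library of their own number.

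Directions turned only in genes that were not called. The slope of C1qc, at -0.00, was 0.002 with the size factors of DESeq2, 0 without a filter, 0.004 at 1 CPM in 3 libraries, 0.009 with reference transcripts only and 0.003 with DESeq2, and -0.061 to 0.086 with each library left out. C4b with its reference transcript only had a slope of -3.567 and a 3M against 18M change of -0.394, and the cause was not tested. That transcript had 5.26 FPKM in 6M replicate 1 and 0.055 to 0.251 FPKM in the other libraries. With each library left out, the slope of Cfb was -0.355 to 0.042, and between 3M and 18M C3 was -0.449 to 0.164 and Cfb -0.315 to 0.088. Apart from these and the results of C2 above, 553 values of single genes kept their direction and side of the threshold, and 166 counts and levels moved by less than their limits. C1qa had few reads, with 187 to 369 per library, which limits its precision. The same holds for C1qc (236 to 392), C3 (193 to 513) and Cfb (191 to 598).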
